A study of Mus musculus with 3 samples.

Results

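Mesenchymal cells that carried transcripts of the homeobox genes Alx1 and Gsc were examined in the trunk of the mouse embryo at embryonic day E11.5. A barcode counted as a cell from 4000 unique molecular identifiers (UMIs, each standing for 1 captured transcript) and 500 genes upwards, with mitochondrial UMIs limited to 10%. Members were selected on raw UMIs and had at least 1 UMI of Pdgfra, a receptor gene of embryonic mesenchyme, and at least 2 UMIs of Alx1 and Gsc together. They also had at most 1 UMI of the sclerotome genes Pax1 and Pax9, at most 1 of the mesothelial gene Upk3b and 0 of the neuronal gene Elavl3. This gate held 431 of 6313 cells at E11.5 (6.83%, 95% Clopper-Pearson interval 6.22 to 7.48%) and 21.4% of the 2013 Pdgfra cells. The whole series held 19567 cells. Because raw counts of these genes chose the members, the levels of those genes are given as a description only.

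The labels name no genotype, strain or treatment for any sample, and the groups differ by stage alone (E11.5, E12.5 and E13.5). Trunks spanned the third cervical to the second thoracic segment, without forelimbs and thoracic organs but with the neural tube. Cells of 3 littermates were pooled at each stage into 1 library, so no test between stages or sets of cells was possible and no p-value is given. Intervals cover counting error only, and those of ratios are exact conditional binomial intervals. Depth in the E11.5 library was a median of 12515 UMIs per cell. The E12.5 library had 11066.5 and the E13.5 library 10285, and 10 to 16 cell barcodes were shared between any pair of libraries.

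Alx1 and Gsc encode paired-type homeodomain proteins. Alx1 belongs with Alx4 to a family that is known for its part in the mesenchyme of the face and the body wall. Gsc, or goosecoid, was described as a gene of the gastrula organizer and is later found in mesenchyme of the face, the limb and the ventral body wall. The body wall is built by lateral plate mesoderm, with muscle and ribs from the somites.

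Most members had UMIs of 1 of the 2 genes. In all, 183 had Alx1 UMIs and no Gsc UMI, 122 had Gsc UMIs and no Alx1 UMI, and 126 (29.2%) had both. They are called the Alx1 cells, the Gsc cells and the cells with both. After each cell was thinned to 4000 UMIs, Alx1 was found in 16.6% of the 175 cells with a Gsc UMI (interval 11.4 to 22.9%), among Pdgfra cells within the same upper limits. It was found in 11.7% of the 1358 cells without one (10.05 to 13.54%). These intervals overlap. The gate's edge was not a gap: 120 members had exactly 2 UMIs of both genes together, and 189 cells lay just outside with exactly 1.

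**Figure D1:**
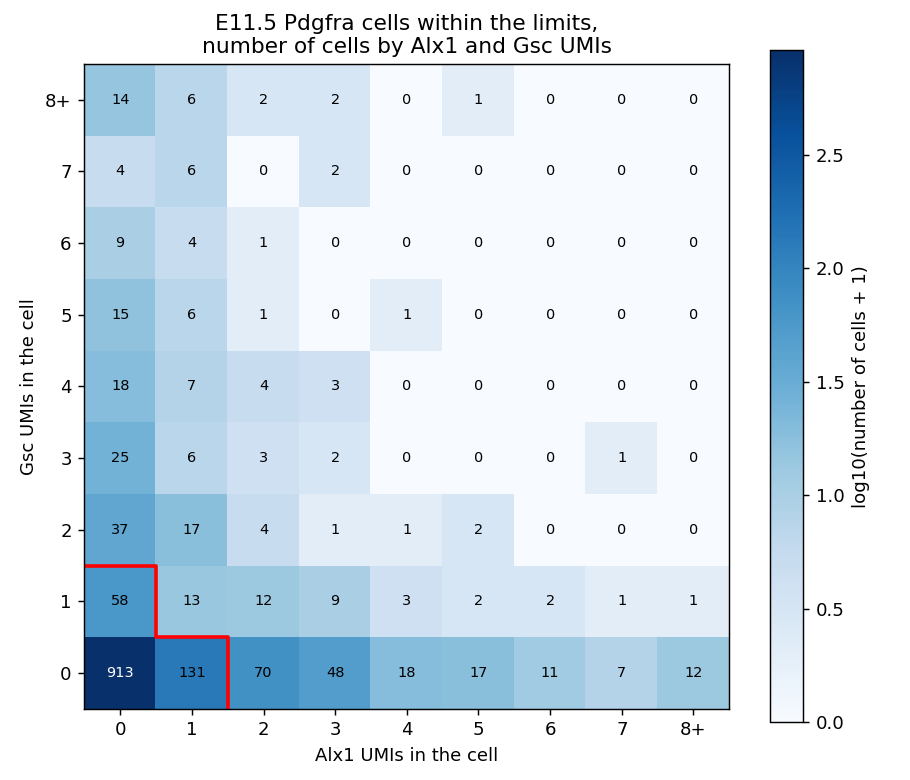
Number of E11.5 Pdgfra cells within the upper limits, by Alx1 UMIs (x axis) and Gsc UMIs (y axis) in the cell; counts of 8 or more share the last row or column, and colour is log10 of the number plus 1. The red line marks the edge of the gate: 913 cells had neither gene, and the cells above and right of the line are the 431 members.

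Cells on either side of that edge had graded levels. Tbx5, a lateral plate and forelimb field factor, stood at 70.5 CPM (UMIs per 1000000) in members with exactly 2 UMIs and 49.6 CPM in the cells just outside. For Prrx2 the levels were 218.5 and 174.1 CPM.

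The marker genes given for the members were not all higher in them. Prrx2, a homeobox gene of mesenchyme, summed to 259.6 CPM in members and 114.5 CPM in the other 1582 Pdgfra cells, a log2 ratio of 1.18 (1.10 to 1.27). Six2, a homeobox gene of mesenchyme and kidney progenitors, stood at 25.2 and 18.1 CPM, a log2 ratio of 0.48 (0.22 to 0.74). Bdnf, a neurotrophin, stood at 40.6 and 48.0 CPM, a log2 ratio of -0.24 (-0.43 to -0.05). Against the 913 Pdgfra cells within the same upper limits and without an Alx1 or Gsc UMI, the log2 ratio of Six2 was -0.10 and that of Bdnf was -0.71. Of these 3 markers outside the gate Prrx2 alone reached a log2 ratio of 1 against the other Pdgfra cells. Against a gate of lateral plate cells described below, 0 of the 3 did, at a median log2 ratio of 0.53. The cells are named here by the 2 genes that chose them.

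Sequence upstream of Six2 is shown because it was the promoter, among the genes looked up, that held the paired-homeodomain palindrome TAATNNNATTA. RefSeq promoter windows (GRCm38.p6, 250 bases before to 50 after the start) were matched by symbol for 12 of 20 genes, which gave 19 windows. That palindrome reads the same on both strands, and 0.487% of all 32851 windows held it. The element TAATCC, searched on both strands, was in 0 of the 19 windows and in 7.06% of all windows. The Six2 window lies at chr17:85688205-85688504 on the minus strand, with the palindrome in capitals.
Six2: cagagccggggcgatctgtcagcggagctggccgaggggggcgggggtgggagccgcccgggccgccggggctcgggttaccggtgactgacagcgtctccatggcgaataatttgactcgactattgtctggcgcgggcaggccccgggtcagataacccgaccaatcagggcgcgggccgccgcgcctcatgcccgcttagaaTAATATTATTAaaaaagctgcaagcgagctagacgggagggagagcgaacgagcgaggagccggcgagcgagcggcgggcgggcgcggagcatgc
A match is a description of these letters and not evidence of binding.

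Members were first compared with the other Pdgfra cells over 9873 genes of at least 5 CPM. Called here means a log2 ratio of at least 1 or at most -1. Higher in members were 64 genes (0.648%), and lower were 234 genes (2.37%). The 15 highest included developmental transcription factors and secreted proteins, and also the agouti gene a and Hdnr, at a log2 ratio of 1.98. Against the 913 cells within the same limits, 113 genes were higher (1.16%) and 172 were lower (1.76%).

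Transcription factors of the lateral plate made up much of the top of the ranking. Tbx5 stood at 104.4 CPM in members and 25.1 CPM in the other Pdgfra cells, a log2 ratio of 2.06 (1.90 to 2.21). Related T-box genes stood beside it, Tbx3 at a log2 ratio of 1.69 (1.56 to 1.83) and Tbx2 at 1.58 (1.40 to 1.77). Hand2, a basic helix-loop-helix factor of lateral plate derivatives, had a log2 ratio of 1.62 (1.42 to 1.82), and its divergent neighbour Hand2os1 had 1.85 (1.48 to 2.21). Alx4, of the same family as Alx1, had a log2 ratio of 1.16 (0.90 to 1.42).

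As a group, 8 of the 22 compared genes of the lateral plate and limb field list were higher and 4 were lower, with a median log2 ratio of 0.56 against -0.01 over all genes. Gata6, Gata5, Hand1 and Pitx1 were among the 8, at log2 ratios of 1.45, 1.48, 1.42 and 2.75. The 4 lower genes were Foxf2 (-3.36), Isl1 (-2.66), Foxf1 (-2.15) and Lhx2 (-1.67). Foxf1 and Foxf2 are known as genes of the splanchnic layer, and Isl1 also marks motor neurons. Of the 185 Foxf2 UMIs in the other Pdgfra cells, 107 lay in the 264 cells of the sclerotome gate described below. Against the cells within the same limits, 8 of 18 genes of this list were higher and 1 was lower, and the ratio of Isl1 was 0.00.

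Members that also had at least 2 UMIs of Tbx5, Emx2 and Hand2 together made up 58.0% of the 431, and 20.9% of the other Pdgfra cells met that condition. Emx2 and the other gate genes of the lateral plate were not part of the rule for members.

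**Figure D2:**
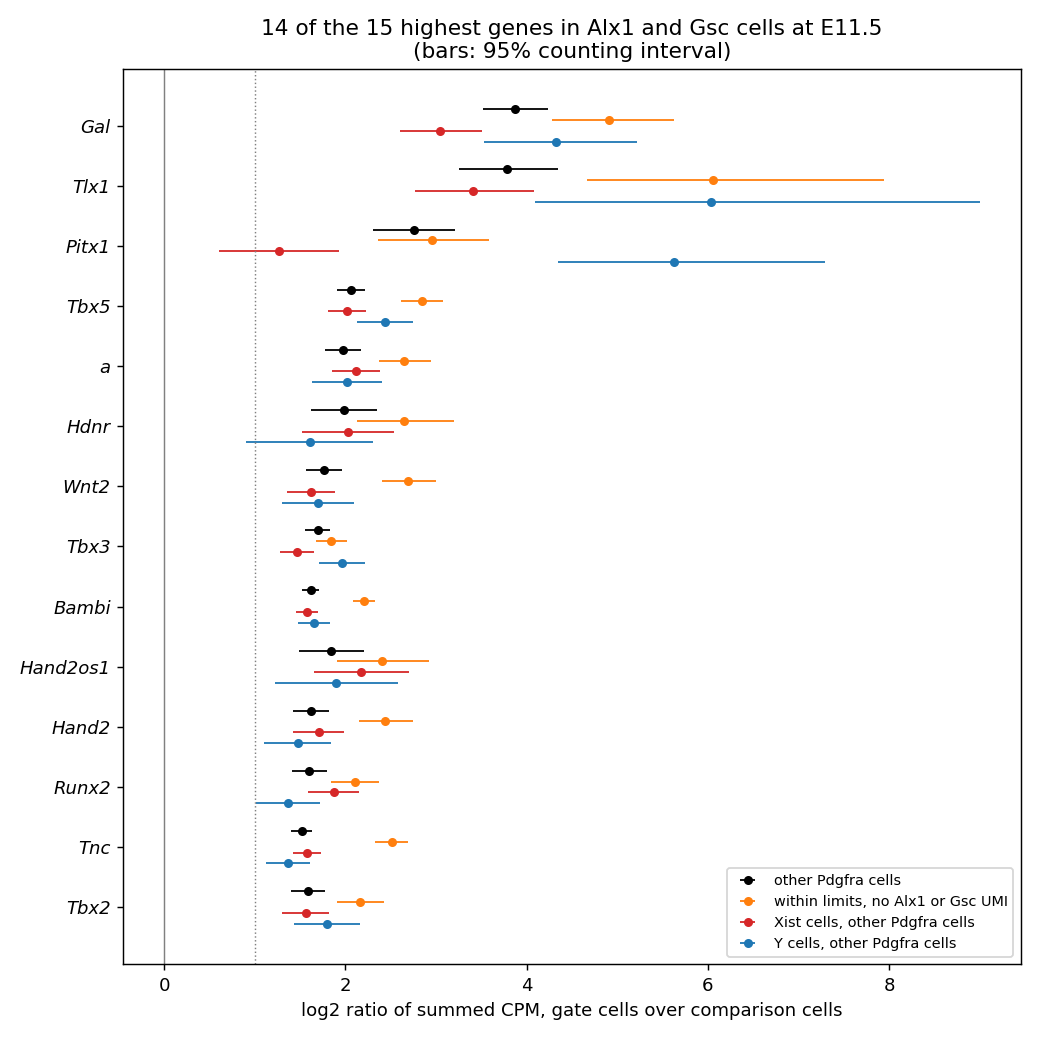
Log2 ratio of summed CPM (x axis) for 14 of the 15 highest genes (y axis), in members over the other Pdgfra cells (black), over Pdgfra cells within the limits without Alx1 or Gsc UMIs (orange), and within Xist cells (red) and Y cells (blue) alone, with 95% counting intervals. Every ratio lies above 1, the dotted line. The genes were ranked by the comparison in black, which includes the Xist and Y cells.

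Members with Xist but without Y-linked UMIs (241, the Xist cells) and those with Y-linked UMIs but without Xist (129, the Y cells) come from embryos of different sex within the pool. In both, all 15 of the highest genes were past the fold. These cells are among those in which the 15 genes were ranked, so high ratios in both are partly set by that choice. Between Xist and Y cells Pitx1 differed most, with log2 ratios of 1.27 and 5.63.

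Secreted proteins and signalling genes were counted by list. Wnt2, a WNT ligand, stood at 60.0 CPM in members and 17.7 CPM in the others, a log2 ratio of 1.77 (1.57 to 1.96). Rspo4, which enhances WNT signalling, had a log2 ratio of 1.73, and the WNT inhibitors Dkk1 and Dkk2 had 1.52 and 1.23. Lower WNT genes were Wnt6 (-2.57), Wnt16 (-2.55) and Frzb (-1.70). Of 11 WNT ligand genes compared 2 were higher and 2 lower, and of 11 antagonists and targets 2 were higher and 1 lower. Bambi, a decoy receptor for BMP signals, stood at 255.6 and 83.3 CPM, a log2 ratio of 1.62 (1.53 to 1.71). Of 19 genes of the BMP list 2 were higher, Bambi and the antagonist Grem1 (1.10), and 3 were lower. The lower ones were Fst (-1.80), which encodes the antagonist follistatin, Bmper (-1.65) and the antagonist Chrd (-1.01). Against the cells within the limits Grem1 stood at 0.76, short of the fold. The BMP target Msx2 had a log2 ratio of 1.53 (1.39 to 1.66), and its relative Msx3 had -1.40, but 0.01 against the cells within the limits. Gli1 and Ptch1, targets of hedgehog signalling, were lower at -1.51 and -1.29, and against the cells within the limits 0 of 7 genes of the hedgehog list passed the fold.

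Matrix and skeletal genes divided. Tnc, which encodes tenascin C, had a log2 ratio of 1.52 (1.40 to 1.64) and Runx2, the factor of bone formation, had 1.60 (1.41 to 1.79). Col2a1 and Col9a1, cartilage collagens, were lower at -1.59 and -1.01, and the tendon factor Scx had 0.91, short of the fold. Of 8 chondrogenic and tendon genes compared 1 was higher and 2 were lower, and of 23 matrix genes 1 was higher and 2 were lower. Crabp1, a retinoic acid binding protein, stood at 887.4 and 366.3 CPM, a log2 ratio of 1.28 (1.23 to 1.32). It was the 1 higher gene of 11 compared on the retinoic acid list, and 2 were lower. These were Dhrs3 (-1.45), a retinaldehyde reductase, and Aldh1a2 (-1.15), which makes retinoic acid.

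Sclerotome genes lay on the other side. Of 9 compared, 0 were higher and 6 were lower, at a median log2 ratio of -1.11, and Pax1 and Pax9 are left out since the gate used them. Uncx, a homeobox gene of the caudal sclerotome, stood at 3.30 and 30.5 CPM, a log2 ratio of -3.21 (-3.87 to -2.61). The limit on Pax1 and Pax9 leaves sclerotome cells among the other Pdgfra cells. Against the cells within the same limits Uncx stood at 3.30 and 17.1 CPM, a log2 ratio of -2.37 (-3.06 to -1.75), and 6 of 9 sclerotome genes were lower there too. In the first comparison Foxc1 had -1.55, Foxd1 -1.48 and Meox2 -1.40. Low sclerotome genes were not particular to the members. Against the lateral plate gate described below, 1 of 8 was higher, Foxd1, and 2 were lower, at a median log2 ratio of -0.10. Unthinned, Foxd1 was found in 18.3% of members and 9.17% of that gate. In the adipose lineage list 0 of 9 genes were higher and 1 was lower, Ebf1 at 48.6 and 202.5 CPM, a log2 ratio of -2.06 (-2.22 to -1.90).

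Among Hox genes, which mark position along the body axis, 0 of 10 in groups 1 to 4 were higher and 3 were lower: Hoxd1 (-2.72), Hoxd3 (-2.14) and Hoxd4 (-1.80). In groups 5 to 8, 0 of 9 were higher and 3 were lower: Hoxb8 (-1.65), Hoxb6 (-1.62) and Hoxb7 (-1.25). Against the cells within the limits, groups 5 to 8 had 2 higher genes, Hoxc8 (2.46) and Hoxa7 (1.51), and 1 lower, Hoxc5 (-1.01). In groups 9 to 13, Hoxa10 had a log2 ratio of 1.27 and Hoxb9 had -1.94. Against the cells within the limits Hoxb9 stood at 0.22 instead.

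The 10 lowest genes of the whole comparison included Vtn (0.29 and 20.3 CPM, log2 ratio -6.15), Lamc3, AI646519, Lhx1, Zic4, Ina, Nkx6-1, Arg1 and Cartpt. Lamc3 had 0 UMIs in members, which allows up to 0.43 CPM, against 8.45 CPM in the others, through which alone it passed the filter. Lhx1, Ina and Cartpt are known from neurons, and against the cells within the limits their log2 ratios were -0.32, -0.61 and -0.10. Of 8 neuron markers 0 were higher and 5 were lower in the first comparison, at a median log2 ratio of -1.49. In the second 1 of 7 was higher, Dcx at 1.39, and 0 were lower, at a median of 0.67. The summed level of that list was 149.1 CPM in members, 507.6 CPM in the other Pdgfra cells and 113.3 CPM in the cells within the limits, with 1 of 10 markers at 0 in members. Muscle cell markers summed to 42.8 and 131.4 CPM, with 2 of 9 at 0 in members. The part of neurons and muscle cells in the lower calls was not tested beyond that second comparison.

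Some of the highest genes came from few cells. Gal, the neuropeptide galanin, stood at 48.4 and 3.31 CPM, a log2 ratio of 3.87 (3.52 to 4.24), but 54 of the 431 members had a Gal UMI and 1 cell had 74 of the 338. The tenth of members richest in each gene held 97.0% of the Gal UMIs, 95.1% of those of Tlx1 and all of those of Pitx1. By contrast it held 47.7% of the Tbx5 UMIs and 36.9% of those of Tbx3. Tlx1, a homeobox gene known for spleen formation, was found in 51 members and stood at 20.3 and 1.47 CPM, a log2 ratio of 3.79 (3.26 to 4.35). Pitx1, a hindlimb and jaw factor, was found in 26 members.

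Neurons, which should lack Tbx5, give its background of free RNA. In thinned cells Tbx5 was found in 28.1% of members and 0.15% of 1305 neurons (Elavl3 at least 3, Pdgfra 0), whose median depth was 10172 UMIs against 14906 in members. Unthinned, the shares were 51.0% and 0.46%. For Gal, which some neurons express, the background was read in erythroid cells (haemoglobin at least 20% of UMIs, median depth 25621.5 UMIs). The thinned shares were 7.89% of members (5.52 to 10.8%), 0 of 130 erythroid cells (0.0 to 2.80%) and 2.76% of neurons. Unthinned, Gal was found in 54 of the 431 members and 1 of the 130 erythroid cells.

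**Figure D3:**
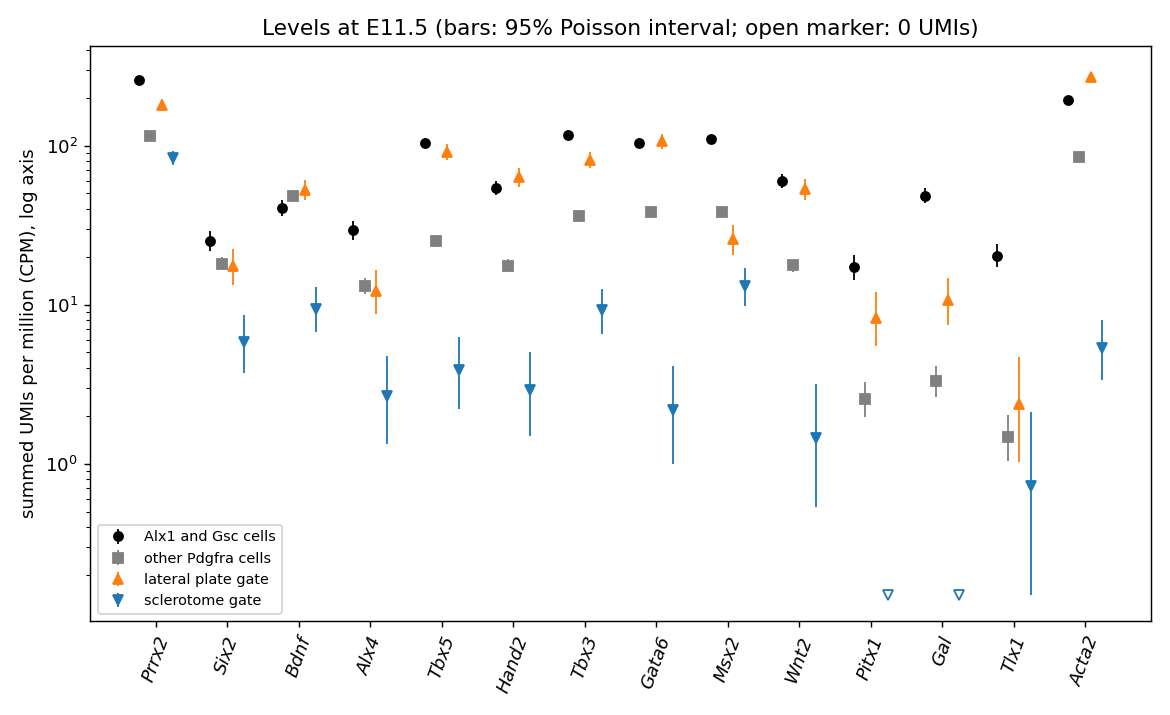
Summed CPM on a log axis (y) for 14 genes (x) in members (black circles), the other Pdgfra cells (grey squares), the lateral plate gate (orange) and the sclerotome gate (blue), with 95% Poisson intervals and open markers at 0 UMIs. Tbx5 stood at 104.4 CPM in the members and 3.87 CPM in the sclerotome gate; its level in the lateral plate gate is set by that gate, which used it.

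Members were also compared with Pdgfra cells that had lateral plate genes but few Alx1 or Gsc UMIs. That gate took at least 2 UMIs of Tbx5, Emx2 and Hand2 together and at most 1 of Alx1 and Gsc, and held 218 cells. Over 9738 genes, 74 were higher in members (0.76%) and 73 lower (0.75%). Several genes high in the first comparison did not pass the fold here. The BMP, retinoic acid, matrix, and chondrogenic and tendon lists had 0 higher genes, of 16, 12, 23 and 8 compared. Lower genes on them numbered 1, 0, 0 and 0. Bambi, Crabp1, Tnc and Runx2 were thus short of the fold. Of 9 WNT ligand genes 1 was higher, Rspo4, and 1 was lower. Msx2 stood at 109.5 CPM in members and 25.7 CPM in the gate, a log2 ratio of 2.09 (1.77 to 2.43). Tbx1, a pharyngeal and mesodermal T-box factor, had a log2 ratio of 2.61 (1.76 to 3.59), Lbx2 had 3.91 and Tlx1 had 3.11. Lower in members were the homeobox gene Lhx2 (-3.06, -3.90 to -2.30) and Tbx15 (-2.47). Myod1, Myog, Actc1 and Ttn were also lower, but 1 cell of the gate held 50 of its 51 Myod1 UMIs and 115 of its 119 Myog UMIs. Car2 and Mt1 were higher in members, with 53 of 58 and 92 of 126 UMIs in 1 cell, a cell with 38.5% of its UMIs from haemoglobin genes.

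The other gate held the sclerotome cells, 264 Pdgfra cells with at least 2 UMIs of Pax1 and Pax9 together and at most 1 of Alx1 and Gsc. Over 9715 genes, 367 were higher in members (3.78%) and 182 lower (1.87%). Gata6, a zinc finger factor, stood at 103.7 and 2.18 CPM, a log2 ratio of 5.57 (4.64 to 6.71). Acta2, smooth muscle actin, had 5.19 (4.58 to 5.87) and Wnt2 had 5.37. Unthinned, Acta2 was found in 24.8% of members and also in 25.7% of the lateral plate gate. Between those 2 sets 0 of 5 mural markers passed the fold. Gal, Pitx1 and Gata6os had 0 UMIs in the sclerotome cells, which allows up to 0.73 CPM, and passed the filter through the members alone. Uncx (-4.79), Foxf2 (-5.18), Arg1 (-4.92), Saa1 (-5.46), Nkx6-1 (-4.83) and AI646519 (-6.18) were the lowest.

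The Gsc cells and the Alx1 cells were then compared with each other. Over 9735 genes, 257 were higher in the 122 Gsc cells (2.64%) and 334 were higher in the 183 Alx1 cells (3.43%). The Gsc cells were the shallower, with a median of 11910 UMIs against 16117, and the part of depth in these counts was not tested.

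Posterior Hox genes were higher in the Gsc cells. In groups 9 to 13, 6 of the 16 listed genes reached 5 CPM over both sets, and these 6 were higher in the Gsc cells. Hoxa10, Hoxd9, Hoxd10 and Hoxd11 stood at 1.29 CPM or less in the Alx1 cells and passed that filter through the Gsc cells. The count of 6 was thus partly set by the filter. Over all 16 genes the list summed to 167.8 CPM in the Gsc cells and 15.8 CPM in the Alx1 cells. Hoxa10 had 67 UMIs in 27 Gsc cells and 1 UMI in the Alx1 cells, a ratio of 6.99 on the log2 scale with an interval of 4.46 to 12.31. Hoxa9 stood at 46.5 and 5.49 CPM, a log2 ratio of 3.08. Hoxd9, Hoxd10 and Hoxd11 had 4.28, 5.57 and 4.05, but 8 Gsc cells held all 35 Hoxd11 UMIs. The summed levels were 158.1 and 13.7 CPM in the Xist cells and 147.5 and 14.4 CPM in the Y cells. Groups 1 to 4 summed to 480.1 and 495.1 CPM.

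**Figure D4:**
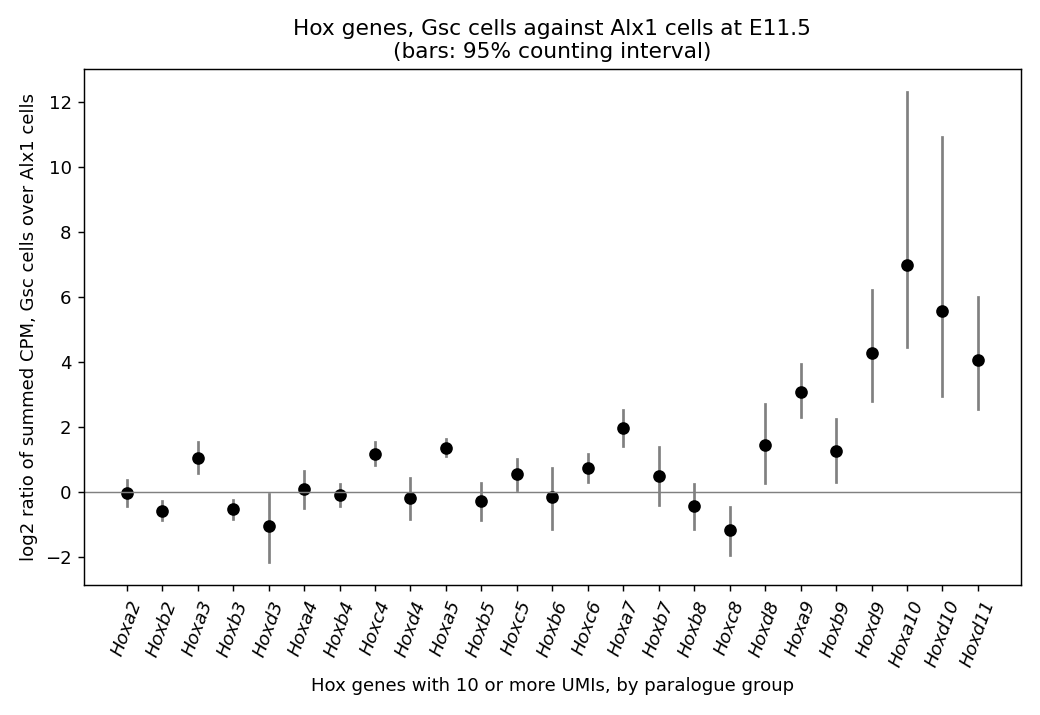
Log2 ratio of summed CPM in 122 Gsc cells over 183 Alx1 cells (y axis) for Hox genes with at least 10 UMIs, ordered by paralogue group (x axis), with 95% counting intervals. Genes of groups 1 to 8 lie between -1.16 (Hoxc8) and 1.97 (Hoxa7), and those of groups 9 to 11 between 1.28 (Hoxb9) and 6.99 (Hoxa10).

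Other lists and single genes were more mixed. Of 8 chondrogenic and tendon genes 3 were higher in the Gsc cells, Scx at a log2 ratio of 1.83 (1.56 to 2.11), the cartilage factor Sox5 at 1.46 and Col9a1 at 1.02, and Runx1 was lower (-1.79). Of 8 sclerotome genes 4 were higher and 2 lower. Of 9 WNT ligands and R-spondins 4 were higher, Rspo4 (2.23), Rspo2 (1.65), Wnt11 (1.29) and Wnt5b (1.28), and Wnt2 was lower (-2.26). From the BMP list 4 of 17 were higher, with the joint ligand Gdf5 at 3.46, and 1 was lower, Bambi at -1.19.

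Among single genes higher in the Gsc cells, Sim2, a basic helix-loop-helix factor, had 49 UMIs in 29 Gsc cells and 0 in the Alx1 cells, which allows up to 0.97 CPM against 30.0 CPM. Tbx18, a T-box gene, had a log2 ratio of 3.02 (2.19 to 3.94) and Shox2, a limb homeobox gene, had 1.24. Gdnf, a neurotrophic factor, had 2.86 and the ephrin receptor Epha5 had 2.73. From the adipose lineage list Prdm16 (1.62), Ebf2 (1.30) and Zfp423 (1.20) were higher, 3 of 9 genes, and 0 were lower. Gm10000 had 30 UMIs and 0. Both Sim2 and Gm10000 passed the filter of 5 CPM through the Gsc cells alone. Car2 and Mt2 ranked among the highest as well, but 53 of 53 Car2 UMIs and 35 of 36 Mt2 UMIs of the Gsc cells came from 1 cell, the one with haemoglobin.

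Of 18 lateral plate and limb field genes, 7 were lower in the Gsc cells, that is, higher in the Alx1 cells, and 2 were higher, Lhx9 (1.71) and Osr1 (1.26). Hand1 (-4.75), Pitx1 (-3.04), Gata5 (-1.88) and Gata6 (-1.78) were among the 7. Of 5 mural markers 2 were lower and 0 higher. These were Acta2 and Tagln. Acta2 stood at 328.5 CPM in the Alx1 cells and 47.2 CPM in the Gsc cells, a log2 ratio of -2.80 (-3.15 to -2.47) for Gsc over Alx1 cells, and Tagln, a smooth muscle protein, had -2.34. Foxd1, from the sclerotome list, had -2.56. Of the WNT antagonists and targets 0 of 10 were higher and 5 were lower, with Nkd1 at -2.03, Axin2 at -1.46, Dkk1 at -1.45 and Dkk2 at -1.24. Within the Y cells Dkk1 stood at 0.30 instead. Of 22 matrix genes 5 were lower and 1 was higher, with Dcn at -2.18, Lum at -2.01, Tnc at -1.91 and Col1a1 at -1.63. Hmx1, Ntrk3 and Aldh1a7 had 0 UMIs in the Gsc cells, which allows up to 1.84 CPM, and 23.9, 13.6 and 11.3 CPM in the Alx1 cells. Those 3 genes passed the filter of 5 CPM through the Alx1 cells alone. Cxcl14, a chemokine, had -4.72. Calb1 had -4.88, with 45 of 56 UMIs in 1 cell. Bdnf was lower in the Gsc cells at -1.36 (-1.94 to -0.82), while Six2 had 0.00 (-0.59 to 0.57).

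Genes of G2 and M phase were lower in the Gsc cells for 20 of 20, at a median log2 ratio of -0.55 against -0.0041 over all genes, and 0 of them passed the fold. Their summed level was 2538.9 CPM in the Gsc cells, 3648.3 CPM in the Alx1 cells and 4527.9 CPM in the cells with both. Median depths were 11910, 16117 and 15879 UMIs in that order, and the part of depth was not tested. Macrophage markers were at 0 UMIs for 8 of 8 in the Gsc cells and summed to 40.7 CPM in the Alx1 cells. Only 2 of the 8 reached 5 CPM over both sets. The number of Alx1 cells that held these UMIs is not reported here, so no difference between the 2 kinds of mesenchyme is read from them.

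Cells with both genes were not midway for every gene. Tlx1 stood at 52.5 CPM in them, against 11.6 CPM in the Gsc cells and 1.61 CPM in the Alx1 cells. Gal stood at 112.1, 15.9 and 19.4 CPM in the same order, Msx2 at 186.8, 98.6 and 59.1 CPM, and Prrx2 at 329.6, 197.8 and 241.4 CPM. These 126 cells had 6 called doublets (4.76%), against 2 of 122 and 2 of 183.

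Pairs of genes were counted cell by cell, in cells thinned to 4000 UMIs. All 10 members with a Pitx1 UMI had an Acta2 UMI, against 15.0% of the others. Wnt2 was found in 39.7% of the 73 members with Acta2 (28.5 to 51.9%) and 6.4% of the other 358. Foxd1 was found in 0 of the 121 members with Tbx5 (0.0 to 3.0%) and in 16.1% of the others. Tlx1 was found in 0 of the 34 members with Gal (0.0 to 10.3%) and in 6.55% of the others (4.32 to 9.45%), and these intervals overlap.

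Fewer cells passed the same gate at the later stages. The E12.5 library had 190 such cells of 6140 (3.09%, 2.68 to 3.56%). For E13.5 the number was 66 of 7114 (0.928%, 0.718 to 1.18%). Cells with both genes numbered 18 and 1. The stages are single libraries whose difference cannot be told apart from that between libraries, and the median depth was lower at the later stages. With the gate on cells thinned to 4000 UMIs, the shares from E11.5 to E13.5 were 1.36, 0.635 and 0.141%. As shares of the Pdgfra cells, unthinned, they were 21.4, 7.58 and 2.03%. The part of depth was not tested further.

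At E12.5, 14 of the 15 highest genes kept a ratio above 0 and 4 passed the fold, where 0.554% of all genes were higher. Tlx1 (3.67), Pitx1 (2.70) and Tbx3 (1.38) were among the 4, while Gal stood at -0.37. At E13.5, 11 of 15 were above 0 and 6 passed the fold, against 1.15% of all genes. Pitx1 had 1.45, Hand2 had 1.18 and Tnc had 1.10, and Gal and Tlx1 had 0 UMIs in the gate. Prrx2 had log2 ratios of -0.05 and -0.27 at these stages. The gate's genes were also ranked anew at each stage. Scx (2.55), Tnmd (2.04) and Thbs4 (1.90), genes of tendon, were among the highest at E13.5. At E12.5 the leading C1qa had 116 of 117 UMIs in 1 cell, followed by Cxcl13 (2.79), with 513 of 945 UMIs in 1 cell, C1qb (80 of 82), Pitx1, which was also among the 15 highest at E11.5, and Wt1 (2.25).

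**Figure D5:**
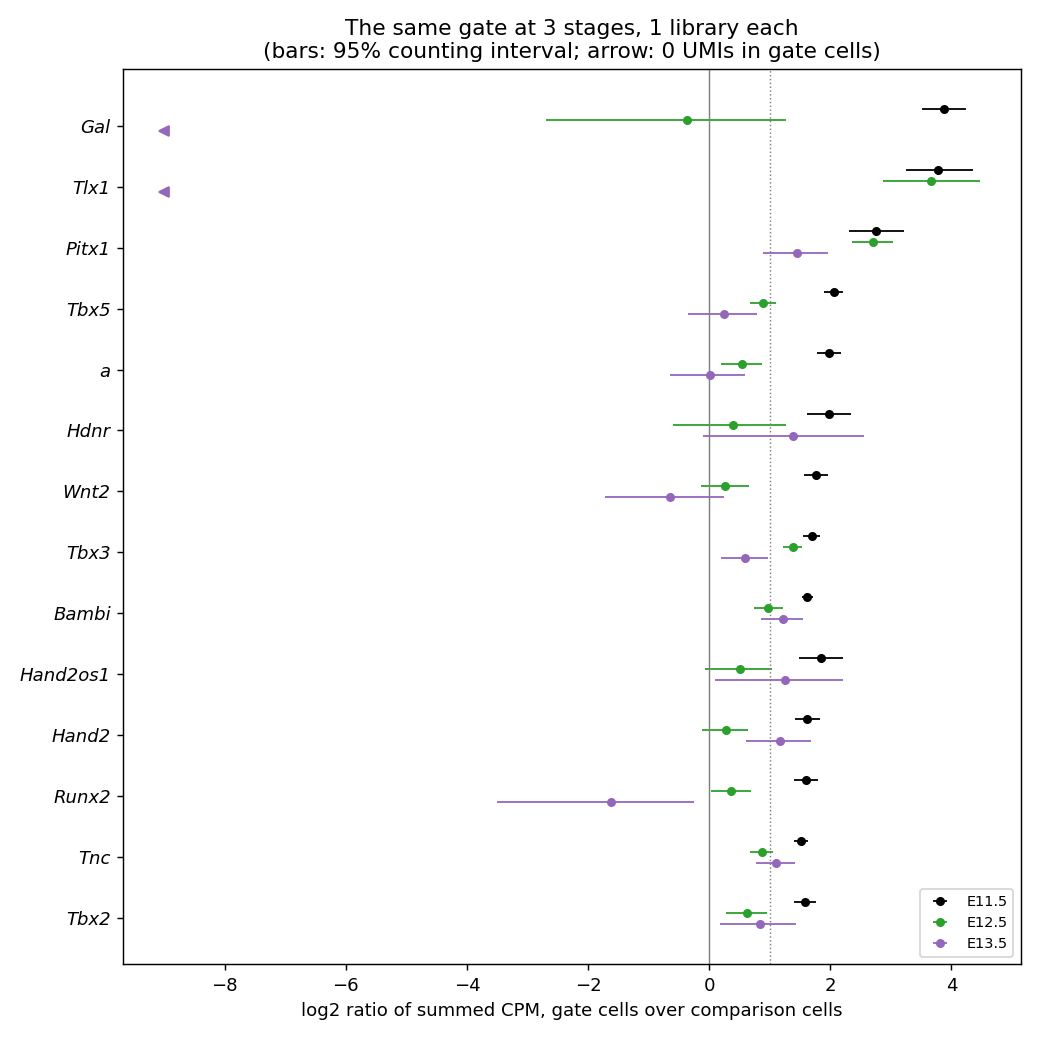
Log2 ratio of summed CPM in cells of the gate over the other Pdgfra cells (x axis) for 14 of the 15 genes highest at E11.5 (y axis), at E11.5 (black), E12.5 (green) and E13.5 (purple), with 95% counting intervals; an arrow at the left edge marks 0 UMIs in the gate. At E12.5 the ratio of Tlx1 was 3.67, against 3.79 at E11.5, and Runx2 lay at 1.60, 0.37 and -1.62 over the 3 stages.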

How the data were processed

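Single-cell libraries (10x Genomics Chromium 3' kit, version 3.1) were made from TrypLE-dissociated trunks, per the labels' protocols. The authors deposited UMI counts for each gene and barcode, and the submitters' processing notes name Cell Ranger 8.0.1 and GRCm39. The annotation release and strand setting are not given in the sources used here. All 33696 genes and every barcode were listed, empty droplets included.

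Raw UMIs were summed over each set of cells and scaled to CPM. Ratios were compared for genes of at least 5 CPM over both sets, with exact conditional binomial intervals (95%), and shares have Clopper-Pearson intervals. Gate genes, ribosomal protein, mitochondrial and haemoglobin genes, Y-linked genes and Xist were left out of counts and rankings. A count of 0 allows 3 UMIs over the set of cells. For the alternatives to the processing, 0.5 UMIs were added to both sets where a set had 0. Called doublets (scrublet, scanpy 1.11.5, 2.60% at E11.5) were kept, 10 among the members. Ratios were tested on simulated data. Python 3.11.15 with scipy 1.17.1 and numpy 2.4.6 was used.

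The members and the 35 gene lists were chosen with earlier results of these data known. Named were the 15 highest and 10 lowest genes by the interval bound nearest 0, the 6 highest and 6 lowest in other comparisons, up to 4 genes per list by absolute ratio, and the markers; those discussed are a subset of the per-list genes. Gata5, Hand1, Gata6, Lhx2 and Chrd in the comparison with other Pdgfra cells, Wnt5b, Bambi, Lhx9 and Osr1 between Gsc and Alx1 cells, and the gene pairs described, were picked after values were seen. Alternatives removing cells with haemoglobin, splitting Gsc and Alx1 cells by sex, and restricting members to the lateral plate condition were chosen after seeing the data. Some genes are not reported here.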

Additional observations from a re-analysis of the deposited data

Results flagged for a closer look

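Ratios that passed the fold in opposite directions are listed here, and none of these differences was tested. Dkk1 was higher in cells of the gate at E11.5 (log2 ratio 1.52) and lower at E12.5 (-1.89, from 7 UMIs) and E13.5 (-3.43, from 1 UMI). Runx2 stood at 1.60 at E11.5 and -1.62 at E13.5, from 4 UMIs in the 66 cells of the gate. Sox3 stood at -1.61 at E11.5 and 2.48 at E13.5, also from 4 UMIs.

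Within E11.5, 4 haemoglobin genes were higher in members among cells with Y-linked UMIs and lower among cells with Xist. Their log2 ratios in Y and Xist cells were 6.49 and -4.01 for Hbb-bh1, 6.61 and -5.84 for Hbb-bs, 4.42 and -4.52 for Hbb-bt, and 5.82 and -4.60 for Hbb-y. A single member held 1398 of the 1437 Hbb-bh1 UMIs, 589 of the 597 of Hbb-bs, 174 of the 206 of Hbb-bt and 8441 of the 8868 of Hbb-y.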

How the results depend on the processing

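No paired analysis was possible because each stage has 1 library. The 15 highest genes kept their direction under all 16 alternatives to the comparison with other Pdgfra cells, and all 15 passed the fold in each but the gate on thinned cells, which left 86 members and 7 genes past it. The changed filters could not alter these ratios, and the median used for centring was only -0.0055. The 15 genes were also ranked in these same cells, so this count is a description and not independent support. The number of higher genes, 64 as reported, was 115 in Y cells, 113 against cells within the limits, 109 against 1 cell per member nearest in depth, 1592 with no filter and 26 with a filter at 20 CPM; the lower genes, 234 as reported, numbered 2035 and 67 with those filters. The share of members was 4.93% with a minimum of 3 UMIs, 9.82% with 1, 8.21% without the upper limits, 1.36% in thinned cells, 7.49% from 8000 UMIs and 8.20% in Y cells. At E12.5 it was 1.82, 5.96, 0.635 (thinned) and 3.86% (8000 UMIs), and at E13.5 0.450, 2.87, 0.141 (thinned) and 1.49% (Y cells). Between Gsc and Alx1 cells, 449 and 521 genes passed the fold in Xist cells and 493 and 741 in Y cells, which hold fewer cells. The causes were not tested.

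Some single values changed sign. Against cells within the limits the log2 ratio became 0.0100 for Msx3, 0.00034 for Isl1, 0.22 for Hoxb9, 0.98 for Stmn2, 0.33 for Sox2 and 0.20 for Acta1, and the list medians 0.67 (neuron) and 0.035 (neural progenitor). With the thinned gate Acta1 stood at 1.33, Acta2 at -0.33 and Tagln at -0.25. Acta1 stood at 0.86 in Xist cells, Myog at 0.91 and Hbb-bt at 4.42 in Y cells, and Hbb-bt at 0.25 without the upper limits. With no filter the mesothelium median was -1.61. Without cells rich in haemoglobin, Hbb-bh1, Hba-a1, Hbb-bs and Hba-x stood at -0.21, -0.11, -1.62 and -0.35 against the lateral plate gate, and Hbb-bs, Hbb-bh1 and Hba-x at -1.07, -0.22 and -0.091 against the sclerotome gate. In Gsc over Alx1 cells Hba-a1 then stood at -0.54. Car2 had no UMI left in the Gsc cells, so its value of -2.20 rests on 0.5 UMIs added to both sets and is not a measured reversal. In Xist cells Gsc over Alx1 cells gave Car2 -1.65 and Hba-x -0.00697, and in Y cells Cxcl12 -0.093, Dkk1 0.30, Hoxd3 0.18, C1qb 0.59 and Fcer1g 0.59, while Hoxd3 stood at 0.029 with a minimum of 3 UMIs. The values of Car2, C1qb and Fcer1g rest on the added 0.5 too, since these Gsc cells had no UMI of them.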
